A study of Mus musculus with 21 samples.

Results

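Long-term haematopoietic stem cells (LT-HSC) from Phf6 knockout (KO) mice were compared with multipotent progenitors of the MPP3 gate from KO mice, which describes the step between stem cell and progenitor when Phf6 is missing. The members were the 3 KO LT-HSC and 4 KO MPP3 libraries that the labels name, 7 of the 21 libraries of the series, and the 21100 genes with enough counts to test. All mice were C57BL/6 and 12 weeks old, and each library was made from 100 to 200 bone marrow cells. The wild-type (WT) groups set beside them held 2 WT LT-HSC and 4 WT MPP3 libraries. Both groups of the main comparison lack Phf6, so it does not measure the effect of the knockout. The sources used here do not give the allele, any Cre line, or whether cells of several mice were pooled. The gates were drawn with lineage markers, Sca-1, cKit, CD150 and CD48, and Flt3 was not stained. The MPP3 libraries may thus hold cells with and without Flt3 on their surface.

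LT-HSC sit at the top of blood formation, divide rarely and can rebuild all blood lineages after transplantation. MPP3 are short-lived progenitors that mostly give granulocytes and monocytes, and in mouse marrow they are told from LT-HSC by CD48 on their surface and by the loss of CD150. Mouse stem cells also carry a programme shared with megakaryocytes, the cells that shed platelets. Phf6 encodes a PHD-finger protein of the nucleus, and its human counterpart is mutated in T-cell leukaemia.

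The 7 libraries held 18892723 to 29924111 counts each. Levels are given as CPM (counts scaled to library size and TMM factor), and 3 counts stood for 0.1 to 0.171 CPM. Differences are log2 fold changes of KO LT-HSC over KO MPP3 ± SE, with adjusted p values from edgeR's quasi-likelihood test over all 21100 genes, and a gene was called when that p was under 0.05. KO MPP3 1 had 26.8% of its counts in immunoglobulin genes against 0.056 to 0.0772% in the other KO MPP3 libraries. KO MPP3 2 had 21.9% of its counts in ribosomal RNA genes and 12.8% in mitochondrially encoded genes, and 11% of its counts, in mitochondrial ribosomal RNA, stand in both figures. KO LT-HSC 3 had a count for 20297 genes, against 24376 and 24526 in the other KO LT-HSC libraries. The sample titles fall into numbers under 100 (KO LT-HSC 1 and 2, KO MPP3 1 and 2) and over 100 (KO LT-HSC 3, KO MPP3 3 and 4), and the medians of several gene lists are also given within these 2 sets. Values within a set are differences of mean log2 CPM with a prior count of 0.5, while all other medians are of fitted edgeR changes. The measures differ most for genes with few counts, so a fitted median can lie outside the medians of the 2 sets. The series names 4 pairs of mice but does not tie libraries to mice. KO LT-HSC 2 and KO MPP3 2 had 3137 and 2071 counts of Ddx3y, a gene of the Y chromosome, and the other 5 libraries at most 1, so each group held both sexes and at least 2 animals. The p values measure the spread between libraries within groups, estimated over all 21 libraries in 6 groups and not over these 7 alone.

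Phf6 itself (ENSMUSG00000025626.16, chromosome X, 52912266 to 52956943, plus strand, mm10) was low on both sides of the step. It was at 5.75, 10 and 13.2 CPM in KO LT-HSC and 8.12, 2.45, 12.1 and 13.3 CPM in KO MPP3, against means of 151 CPM in WT LT-HSC and 131 CPM in WT MPP3. The KO groups overlapped, with a log2 fold change of 0.09 ± 0.47 (exact two-sided permutation p = 0.857). With 3 against 4 libraries, the smallest p that this permutation test allows is 0.0571. The antigens of the gates behaved as a check of the labels and are not findings. Slamf1, which encodes CD150, was at 65.1, 57.9 and 54.9 CPM in KO LT-HSC and 0.869, 0, 0 and 0.498 CPM in KO MPP3 (7.40 ± 1.19, edgeR adjusted p = 0.00138). Cd48 was at 19.1, 7.44 and 6.37 CPM in KO LT-HSC and 670, 206, 596 and 530 CPM in KO MPP3 (-5.51 ± 0.59, edgeR adjusted p = 2.5e-05). Kit and Ly6a, which encodes Sca-1, were not called, and Ly6a ran between 56.2 and 700 CPM within KO MPP3 alone.

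Of 21100 genes, 558 (2.64%) were called: 329 (1.56%) were higher and 229 (1.09%) lower in KO LT-HSC. Called higher in KO LT-HSC were 24 of 42 stem cell genes and 18 of 28 genes of megakaryocytes and platelets, and called lower were 11 of 34 granulocyte-monocyte and 7 of 25 lymphoid priming genes. Changes were often large: 138 higher and 94 lower genes differed more than 8-fold, and the smallest called change was 0.65 on the log2 scale. The libraries of the groups did not overlap for 2534 of all genes (12%), 1419 higher (6.73%) and 1115 lower (5.28%), and for 550 of the 558 called genes. In 557 called genes the direction was the same within title numbers under 100 and over 100. For genes without overlap this follows from the lack of overlap and is no further check. Without each of the 7 libraries in turn, 222 genes stayed called, 137 higher and 85 lower. Leaving out KO LT-HSC 1, KO LT-HSC 3 or KO MPP3 4 brought the higher genes to 184, 211 and 204, and leaving out KO LT-HSC 1, 2 or 3 brought the lower genes to 114, 145 and 146. By annotation, 515 of the called genes were protein coding and 11 were long intergenic RNAs. Over all 21100 genes DESeq2 called 1377 and limma voom 1538, the numbers that stand beside their calls in the lists below. Some lists are also described by members with an unadjusted edgeR p under 0.05, whose share over all genes was not counted. These are bulk libraries, in which fewer cells of a type and less RNA per cell cannot be told apart.

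**Figure D1:**
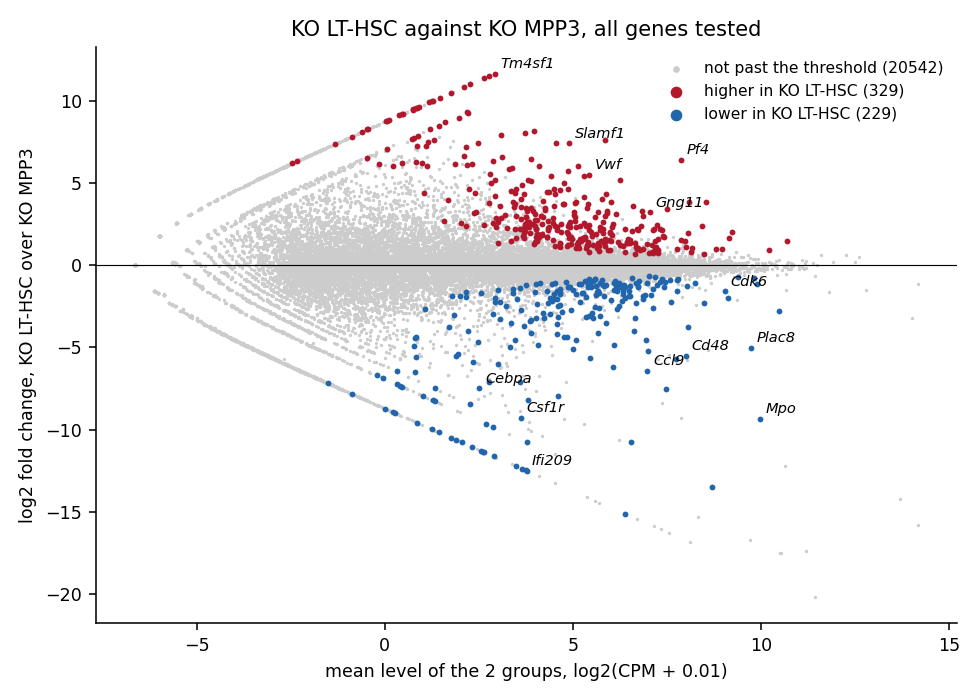
Each point is 1 of 21100 genes, with the mean level of KO LT-HSC and KO MPP3 on the x axis as log2(CPM + 0.01) and the log2 fold change of KO LT-HSC over KO MPP3 on the y axis. The 329 red and 229 blue genes passed an edgeR adjusted p of 0.05, and the diagonal edges are genes with 0 counts in 1 of the groups, many of which did not pass.

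Among the 15 genes with the largest rise, chosen by a rule on fold, level, overlap and stability, several are known from platelets and their precursors. Pf4, a chemokine of platelet granules, was at 338, 701 and 358 CPM in KO LT-HSC and 2.04, 14.3, 3.47 and 2.81 CPM in KO MPP3 (6.38 ± 1.2, edgeR adjusted p = 0.0063). Vwf, the von Willebrand factor that tethers platelets, was at 69.4, 71.2 and 114 CPM in KO LT-HSC and 3.61, 1.2, 0.416 and 2.45 CPM in KO MPP3 (5.46 ± 1.03, edgeR adjusted p = 0.005). Treml1, a receptor held in platelet granules, was at 21.7, 27.6 and 38.5 CPM in KO LT-HSC and 0.565, 0.854, 0 and 0.0355 CPM in KO MPP3 (6.42 ± 1.26, edgeR adjusted p = 0.00715). For each of these 3 genes the lowest KO LT-HSC library was far above the highest KO MPP3 library. The rule chose genes for large fold and no overlap, so this separation follows from it. Pf4 was not called in limma voom (adjusted p = 0.075).

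Tm4sf1, a small membrane protein with tetraspanin-like topology (chromosome 3, 57285611 to 57301988, minus strand, mm10), had reads in only 1 of the 2 groups. It was at 17.5, 14.1 and 14 CPM in KO LT-HSC, from 1316 counts, and at 0 counts in all KO MPP3 libraries. Set against 3 counts for the whole group, this was at least 492-fold higher in KO LT-HSC (edgeR adjusted p = 0.000715). Cavin2, a coat protein of caveolae, was at 167, 107 and 71.6 CPM in KO LT-HSC and 0, 0.398, 1.87 and 0 CPM in KO MPP3 (7.61 ± 1.14, edgeR adjusted p = 0.000776). Cpne8, a copine that binds membranes in the presence of calcium, was at 43.6, 31.4 and 18.9 CPM in KO LT-HSC and 0.434, 0, 0 and 0 CPM in KO MPP3 (8.14 ± 1.70, edgeR adjusted p = 0.0113). These membrane genes had almost no reads in KO MPP3.

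Hoxb5, a homeobox gene whose reporter marks long-term stem cells in mice, was at 21.2, 14.6 and 15.7 CPM in KO LT-HSC and 0.0434, 0.74, 0 and 0 CPM in KO MPP3 (6.55 ± 1.40, edgeR adjusted p = 0.013). Nupr1, a small nuclear protein induced by stress, was at 41.1, 35.7 and 64.3 CPM in KO LT-HSC and 0.0869, 0.512, 0.486 and 0.0355 CPM in KO MPP3 (7.40 ± 1.08, edgeR adjusted p = 0.000572). Tgm2, a transglutaminase that cross-links proteins, was at 53.8, 53.8 and 101 CPM in KO LT-HSC and 0, 0.74, 1.46 and 1.96 CPM in KO MPP3 (6.04 ± 0.90, edgeR adjusted p = 0.000642). Neither group of any of these 3 genes reached into the range of the other, as the rule for this set required. Il4, which encodes the cytokine interleukin 4, was at 37.8, 29.6 and 18.6 CPM in KO LT-HSC and 1.13, 0.911, 0.936 and 0.355 CPM in KO MPP3 (5.10 ± 0.57, edgeR adjusted p = 2.9e-05). Lhcgr, the receptor of luteinising hormone, was at 60.9, 40.6 and 66.1 CPM in KO LT-HSC and 3.17, 1.14, 0.763 and 3.95 CPM in KO MPP3 (4.62 ± 0.86, edgeR adjusted p = 0.00432). The other genes of this set were Reep2 (6.35 ± 1.03), Clca3a1 (5.69 ± 1.22) and Fam110c (4.64 ± 0.65), and Slamf1 from the gate completes it. Clca3a1 had 4.23 CPM in KO MPP3 3 and at most 0.0869 CPM in the other KO MPP3 libraries. Its call was lost when only the 2 groups compared entered the fit (edgeR adjusted p = 0.0988), with no filter on low counts (0.0597) and without KO MPP3 1 and KO MPP3 2 (0.0618), the last of which also ended that of Lhcgr (0.0556).

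The 15 genes with the largest fall were led by genes with no reads at all in KO LT-HSC. Ifi209, an interferon-inducible gene of the p200 family, had 0 counts in KO LT-HSC and 49.0, 10.9, 19.5 and 28.1 CPM in KO MPP3, at least 793-fold lower in KO LT-HSC (edgeR adjusted p = 0.00217). Clec2i, a lectin-like ligand of natural killer cell receptors, had 0 counts in KO LT-HSC and 19, 13.4, 7.80 and 9.06 CPM in KO MPP3, at least 343-fold lower (edgeR adjusted p = 0.00293). Ptger2, a receptor for prostaglandin E, had 0 counts in KO LT-HSC and 13.0, 2.85, 12.9 and 18.5 CPM in KO MPP3, at least 369-fold lower (edgeR adjusted p = 0.00114). Cmah, which hydroxylates sialic acid, had 1 count in KO LT-HSC and 2620 in KO MPP3, where it was at 57.5, 20.8, 23.5 and 8.96 CPM. The ratio of the levels, KO MPP3 over KO LT-HSC, was 2340 with a 95% counting interval of 419 to 92300.

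Regulators of the granulocyte-monocyte lineage were among the same 15. Cebpa, the transcription factor that granulocyte-monocyte progenitors need (chromosome 7, 35119293 to 35121928, plus strand, mm10), was at 0.144, 0 and 0.0334 CPM in KO LT-HSC and 7.12, 15.7, 9.47 and 13.0 CPM in KO MPP3 (-7.49 ± 0.84, edgeR adjusted p = 3.38e-05). Csf1r, the receptor of macrophage colony-stimulating factor, had 3 counts in KO LT-HSC and was at 18.2, 11.4, 40.6 and 27.5 CPM in KO MPP3, a ratio of KO MPP3 over KO LT-HSC of 763 (95% counting interval 261 to 3700, edgeR adjusted p = 0.00646; limma voom adjusted p = 0.0601). Plac8, a small cysteine-rich protein of myeloid cells (chromosome 5, 100553725 to 100572245, minus strand, mm10), was at 90.7, 47.5 and 12.0 CPM in KO LT-HSC and 1577, 1259, 2032 and 1770 CPM in KO MPP3 (-5.05 ± 0.59, edgeR adjusted p = 5.47e-05). The lowest KO MPP3 library thus had 1259 CPM of Plac8 and the highest KO LT-HSC library 90.7. Cst7, cystatin F, an inhibitor of cathepsins in immune cells, was at 2.77, 2.67 and 0 CPM in KO LT-HSC and 152, 66.9, 162 and 152 CPM in KO MPP3 (-6.20 ± 0.82, edgeR adjusted p = 0.000205). Ccl9, a chemokine of myeloid cells, was at 0.611, 4.80 and 3.20 CPM in KO LT-HSC and 200, 97.4, 396 and 305 CPM in KO MPP3 (-6.44 ± 1.09, edgeR adjusted p = 0.00231).

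Tespa1, which acts in T-cell receptor signalling in thymocytes, was at 6.97, 5.79 and 7.77 CPM in KO LT-HSC and 291, 250, 217 and 245 CPM in KO MPP3 (-5.20 ± 0.53, edgeR adjusted p = 1.87e-05). Its libraries were tightly grouped within each population compared with the distance between them. Lat2, a signalling adaptor (-5.11 ± 0.89), Padi2, a peptidyl arginine deiminase (-4.98 ± 0.91), Drc7, of the dynein regulatory complex (-6.03 ± 1.14), and Cd48 belong to the same set. In KO MPP3 2, the library rich in ribosomal RNA, 9 of the 14 falling genes described here had their lowest KO MPP3 value, among them Cst7, Ccl9, Lat2 and Cd48. The part of library quality in these values was not tested. The call of Lat2 was lost when only the groups compared entered the fit (edgeR adjusted p = 0.0712).

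**Figure D2:**
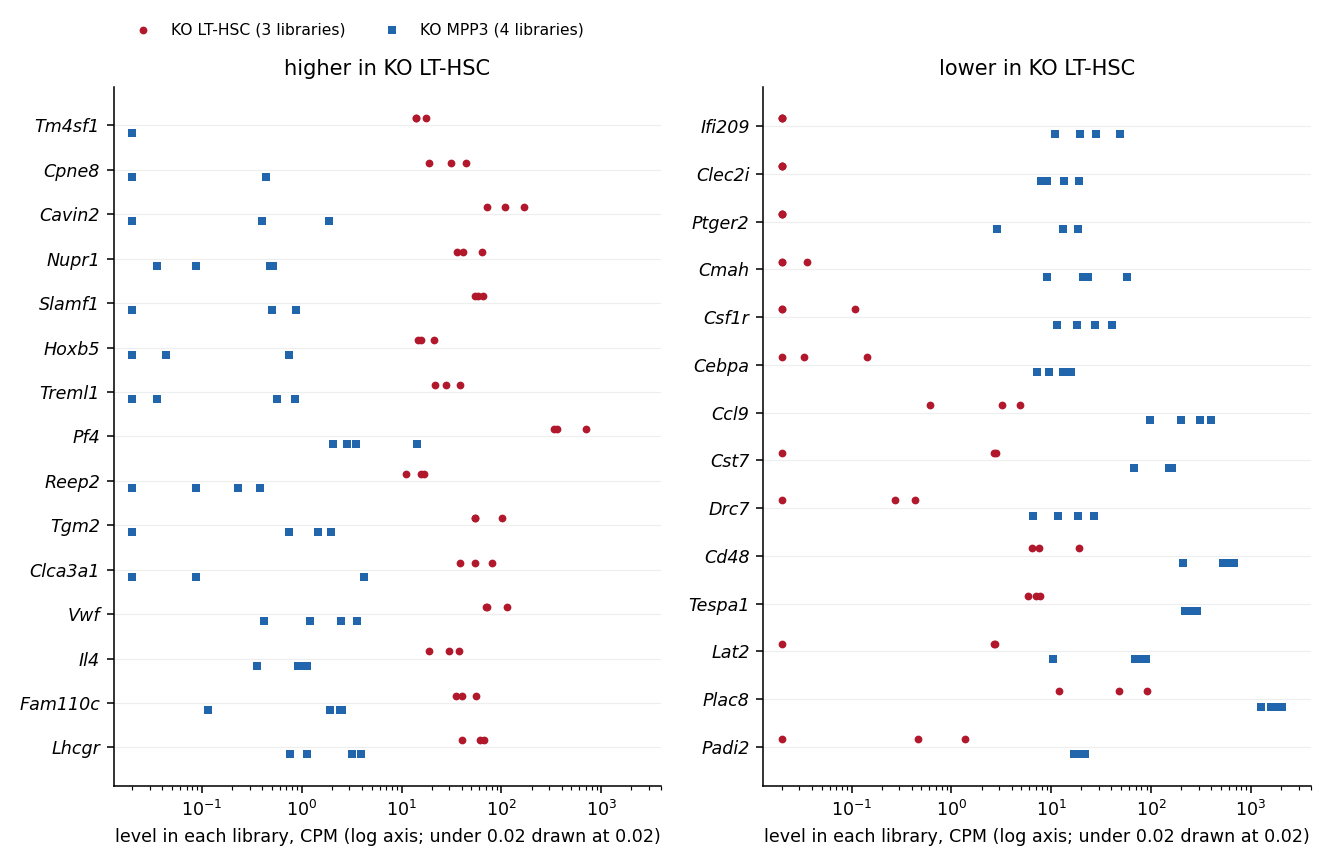
Levels in each library (CPM, log axis, values under 0.02 drawn at 0.02) of the 15 genes with the largest rise (left) and 14 of those with the largest fall (right), 3 KO LT-HSC libraries as red circles above 4 KO MPP3 libraries as blue squares. No gene shows overlap between the groups, which the rule that chose them required, and the spread within a group is widest near 0.

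The promoters of 4 genes named here are shown because they come from both sides of the step and each holds a match to a motif of a blood transcription factor. They were taken from RefSeq (GRCm38.p6, the mm10 build), run 5′ to 3′ over 250 bases up to the RefSeq start on the strand of the gene, and carry the match in capitals. Art4 and Il4 were higher and Plac8 and Cst7 lower in KO LT-HSC. In Art4 (chr6:136857601-136857850, minus strand) the capitals mark the GATA motif AGATAA, in Il4 (chr11:53618666-53618915, minus strand) the C/EBP motif TTGCNNAA on the opposite strand, and in Plac8 (chr5:100572206-100572455, minus strand) and Cst7 (chr2:150570165-150570414, plus strand) the RUNX motif TGTGGT or its reverse complement ACCACA.
Art4: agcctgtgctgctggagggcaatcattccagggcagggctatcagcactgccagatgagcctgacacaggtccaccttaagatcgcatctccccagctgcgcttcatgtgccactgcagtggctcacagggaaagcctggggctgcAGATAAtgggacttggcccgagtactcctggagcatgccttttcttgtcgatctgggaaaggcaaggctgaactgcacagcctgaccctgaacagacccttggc
Il4: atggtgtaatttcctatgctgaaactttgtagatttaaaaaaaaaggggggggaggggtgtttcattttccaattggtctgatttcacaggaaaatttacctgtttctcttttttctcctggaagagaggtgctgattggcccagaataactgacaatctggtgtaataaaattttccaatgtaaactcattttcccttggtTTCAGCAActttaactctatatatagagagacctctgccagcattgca
Plac8: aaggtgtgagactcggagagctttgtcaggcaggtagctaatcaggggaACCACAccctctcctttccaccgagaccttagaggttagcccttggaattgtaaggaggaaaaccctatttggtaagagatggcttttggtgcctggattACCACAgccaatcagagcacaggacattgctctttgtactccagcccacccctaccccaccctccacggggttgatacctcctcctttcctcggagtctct
Cst7: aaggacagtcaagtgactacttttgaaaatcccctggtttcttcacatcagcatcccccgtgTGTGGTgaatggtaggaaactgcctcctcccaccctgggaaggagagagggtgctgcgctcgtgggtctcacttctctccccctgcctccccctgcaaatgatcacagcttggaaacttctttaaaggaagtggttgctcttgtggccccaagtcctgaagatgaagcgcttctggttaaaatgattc

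RefSeq windows were found for 401 of the 558 called genes, 238 higher and 163 lower, and for 12434 of the genes tested. On either strand, AGATAA was in 7.14% of the windows of higher genes, 10.4% of those of lower genes and 6.55% of all. TGTGGT was in 9.66%, 17.2% and 11.4%, and TTGCNNAA in 11.3%, 9.82% and 7.79%, in the same order. The ETS motif CGGAAG was in 8.82% of windows of higher genes, 19% of those of lower genes and 23.3% of all, and the E-box CACGTG in 4.62%, 7.36% and 7.77%. The share of G and C was alike, 58.5%, 58.3% and 58.9%. Each motif was counted apart from the others, so matches of different motifs may overlap. These shares are descriptions of the letters in 250 bases, and no test was run on them.

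Many stem cell identity genes were higher in KO LT-HSC. Of 42 tested members 24 were called higher and 0 lower, with a median log2 fold change of 2.21 against -0.03 over all genes tested. Tek, the angiopoietin receptor Tie2, was at 59.8, 48.4 and 81.0 CPM in KO LT-HSC and 1.17, 5.29, 5.58 and 5.51 CPM in KO MPP3 (3.84 ± 0.43, edgeR adjusted p = 3.39e-05). Esam, an endothelial and stem cell adhesion molecule, was at 153, 157 and 230 CPM in KO LT-HSC and 19.3, 10.5, 8.57 and 20.9 CPM in KO MPP3 (3.60 ± 0.40, edgeR adjusted p = 2.83e-05). For both genes the libraries of the groups did not overlap. Pdzk1ip1, a small membrane protein used to mark stem cells, was higher by 3.41 ± 0.37, and Abcg2, the efflux pump behind the side population, by 1.70 ± 0.20. Mecom, a zinc finger regulator required for stem cell upkeep, was at 190, 115 and 110 CPM in KO LT-HSC and 24.1, 64.8, 18.3 and 12.8 CPM in KO MPP3 (2.21 ± 0.54, edgeR adjusted p = 0.0313). It was picked after its values were seen, and its call was lost without any 1 of 6 of the 7 libraries, all but KO MPP3 2 (edgeR adjusted p from 0.0534 to 0.143). The list held 13 called members without KO LT-HSC 1, the fewest when 1 library was left out, and 18 without KO MPP3 1 and KO MPP3 2 together.

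Among megakaryocyte and platelet genes, 18 of 28 members were called higher and 0 lower, with a median of 2.90. Mmrn1, multimerin of platelet granules, was at 775, 458 and 289 CPM in KO LT-HSC and 69.0, 31.2, 21 and 18 CPM in KO MPP3 (3.87 ± 0.46, edgeR adjusted p = 5.47e-05). Fhl1, a LIM-domain protein, was at 140, 98.8 and 102 CPM in KO LT-HSC and 3.21, 11.3, 3.40 and 4.48 CPM in KO MPP3 (4.35 ± 0.54, edgeR adjusted p = 9.26e-05). Cd9, a tetraspanin of platelets, was higher by 2.21 ± 0.39, and P2rx1, an ATP-gated channel of platelets, by 1.78 ± 0.30. The list shares members with the stem cell list. Summed, its members took 0.393 to 0.404% of counts in KO LT-HSC and 0.0707 to 0.105% in KO MPP3. Gp6, the collagen receptor of platelets, had 0 counts in all 7 libraries. The count of called members was 11 without KO MPP3 1 and KO MPP3 2. Of 18 erythroid genes only Car2, carbonic anhydrase, was called, at 2570, 2733 and 2016 CPM in KO LT-HSC and 910, 680, 1176 and 787 CPM in KO MPP3 (1.46 ± 0.25, edgeR adjusted p = 0.00235). The erythroid median was 7.19 within title numbers under 100 and 0.18 over 100, and 9 erythroid members were called without KO MPP3 3.

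Of 34 granulocyte-monocyte genes 11 were called lower in KO LT-HSC and 0 higher, with a median of -4.71. As differences of log2 CPM, the median was -2.78 within title numbers under 100 and -4.49 over 100. Besides Cebpa, Csf1r, Plac8 and Ccl9 the called members included Ramp1, a subunit of peptide hormone receptors, at 191, 240 and 231 CPM in KO LT-HSC and 938, 573, 1058 and 1010 CPM in KO MPP3 (-2.02 ± 0.30, edgeR adjusted p = 0.000635). Nkg7, a granule membrane protein, fell by 2.26 on the log2 scale, at 71.2, 105 and 28.7 CPM in KO LT-HSC and 448, 166, 339 and 351 CPM in KO MPP3. The granule enzymes varied more within KO MPP3. Mpo, myeloperoxidase, was at 1.51, 7.71 and 0 CPM in KO LT-HSC and 1411, 253, 3301 and 3015 CPM in KO MPP3 (-9.34 ± 2.10, edgeR adjusted p = 0.0232). Ctsg, cathepsin G, had 0 counts in KO LT-HSC and 114, 12.6, 320 and 220 CPM in KO MPP3, at least 5430-fold lower in KO LT-HSC (edgeR adjusted p = 0.0241). Irf8, a transcription factor of monocytes and dendritic cells, was at 3.16, 2.02 and 0.0334 CPM in KO LT-HSC and 58.2, 36.1, 135 and 118 CPM in KO MPP3 (-5.64 ± 1.3, edgeR adjusted p = 0.0234). KO MPP3 2 had the lowest value of all 3 genes, which were picked after their values were seen. Their calls were lost in limma voom (adjusted p from 0.0619 to 0.371) and with no filter on low counts (edgeR adjusted p from 0.0537 to 0.0839). In edgeR, the call of Mpo was lost without KO LT-HSC 1 (adjusted p = 0.117) or 3 (0.065), and those of Ctsg and Irf8 without KO LT-HSC 1, 2 or 3 (0.0673 to 0.0922). With KO LT-HSC 1 or KO LT-HSC 2 left out, the list held 7 called members.

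Summed, markers of mature myeloid cells took small shares of counts in both groups, although single members did not all lie near 0. The neutrophil list had 0 members of 15 called by edgeR, with 3 at an unadjusted p under 0.05, 3 called by DESeq2 and 1 by limma voom, and took at most 0.00667% of counts in KO LT-HSC and 0.0136% in KO MPP3, with Cd177 and Ly6g at 0 counts in all 7 libraries. Its median was -3.31, with -2.22 within title numbers under 100 and -0.22 over 100. Itgam, the integrin CD11b, averaged 0.546 ± 0.501 CPM in KO LT-HSC and 16.4 ± 4.98 CPM in KO MPP3 (SD, n = 3 and 4), and Ifitm6 had 0 counts in KO LT-HSC and averaged 3.74 ± 1.16 CPM in KO MPP3. Neither gene overlapped between the groups, and neither was called (edgeR adjusted p = 0.0769 for Itgam and 0.122 for Ifitm6). S100a8 averaged 16.3 ± 15.4 CPM in KO LT-HSC and 15.3 ± 21.9 CPM in KO MPP3, and S100a9 8.39 ± 9.67 and 14.8 ± 24.8 CPM (SD). Both were uneven within groups and not called. The macrophage list had 1 called member of 13, Csf1r, which the granulocyte-monocyte list also holds, and took at most 0.0062% of counts in KO LT-HSC and 0.00941% in KO MPP3. Its median was 0.33, with 0.77 within title numbers under 100 and -2.56 over 100. Cd163 and Cd68 did not overlap between the groups and were not called, at means of 5.15 and 6.02 CPM in KO LT-HSC and 15.5 and 21.7 CPM in KO MPP3. The part of such cells in the granulocyte-monocyte values was not tested.

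Of 25 lymphoid priming genes 7 were called lower and 0 higher, with a median of -4.09. Satb1, a chromatin organiser of lymphoid progenitors, was at 12.9, 8.61 and 9.04 CPM in KO LT-HSC and 236, 360, 195 and 161 CPM in KO MPP3 (-4.55 ± 0.84, edgeR adjusted p = 0.00432). Il12a, a subunit of interleukin 12, was at 53.3, 43.7 and 22.5 CPM in KO LT-HSC and 300, 176, 281 and 204 CPM in KO MPP3 (-2.59 ± 0.38, edgeR adjusted p = 0.000572). Rag2, a subunit of the recombinase of antigen receptors, had 0 counts in KO LT-HSC and 36.9, 9.85, 37.2 and 25.3 CPM in KO MPP3, at least 834-fold lower in KO LT-HSC (edgeR adjusted p = 0.0293). Arpp21 fell by 7.08 on the log2 scale. Dntt, the polymerase that adds bases at receptor joints, was at 0, 0.206 and 0 CPM in KO LT-HSC and 1145, 559, 783 and 839 CPM in KO MPP3 (-13.46 ± 3.45, edgeR adjusted p = 0.0499). Flt3, the cytokine receptor that the gate left unstained, was at 14.5, 40.0 and 9.71 CPM in KO LT-HSC and 899, 645, 747 and 722 CPM in KO MPP3, and missed the threshold (-5.14 ± 1.42, edgeR adjusted p = 0.0693). The part of cells with Flt3 in the lymphoid priming values of KO MPP3 was not tested. The groups did not overlap for Dntt or Flt3, both picked after their values were seen. Cd27, a TNF receptor of lymphoid progenitors picked in the same way, was at 98.7, 92.5 and 103 CPM in KO LT-HSC and 234, 247, 252 and 242 CPM in KO MPP3 (-1.32 ± 0.34, edgeR adjusted p = 0.04). The calls of Dntt and Cd27 were lost without any 1 of the 7 libraries (edgeR adjusted p from 0.0524 to 0.186 for Dntt and from 0.0622 to 0.134 for Cd27). With no filter on low counts the calls of Dntt (0.105), Rag2 (0.105) and Arpp21 (0.0994) were lost, and in limma voom that of Dntt (0.383). The call of Arpp21 was also lost without KO LT-HSC 1, 2 or 3 (0.0803 to 0.119), and that of Rag2 without these (0.0914 to 0.109), KO MPP3 3 (0.05, just over the threshold) or KO MPP3 4 (0.0518). With any 1 KO LT-HSC library left out, the list held 3 called members.

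Mature lymphocyte markers stood beside these values. The B cell and plasma list, with Pax5 at 0 counts in all 7 libraries, took 0.0222 to 0.0313% of counts in KO LT-HSC and 0.0618 to 20.7% in KO MPP3, where the highest value was KO MPP3 1 and the next 0.0979%. Of its 16 tested members edgeR called 0, with 7 at an unadjusted p under 0.05, and DESeq2 called 2 and limma voom 0. Its median was -5.83 with all libraries and -0.39 without KO MPP3 1 and KO MPP3 2. The lymphoid priming list shares Ighm, Ebf1 and Pax5 with it and took 8.41% of counts in KO MPP3 1, against 0.408 to 0.485% in the other KO MPP3 libraries and 0.0719 to 0.0781% in KO LT-HSC. Without KO MPP3 1 and KO MPP3 2 the lymphoid priming list kept 4 called members and its median was -2.60. Of 10 T and NK cell markers, Nkg7 and Trbc1 were called. Trbc1, a constant segment of the T-cell receptor beta chain, had 0 counts in KO LT-HSC and 0.0434, 0, 15.2 and 75.3 CPM in KO MPP3, and its call was lost without any 1 library but KO MPP3 1 or KO MPP3 2 (edgeR adjusted p from 0.0722 to 0.159). Cd8a and Ncr1 had 0 counts in all 7 libraries.

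**Figure D3:**
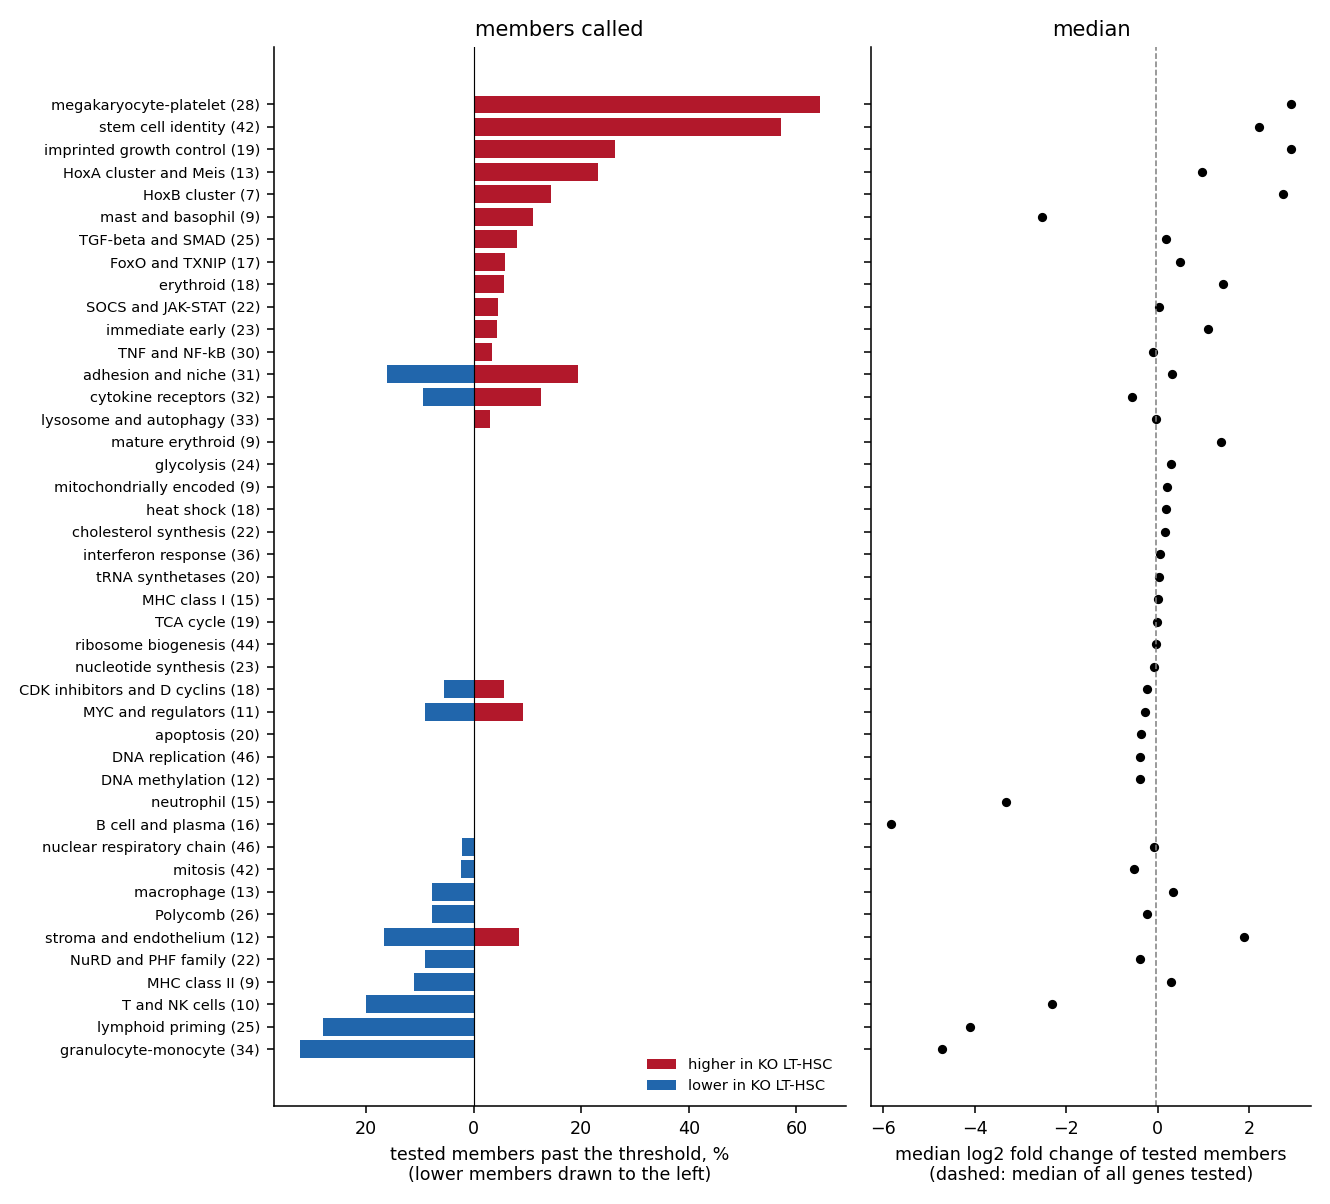
Share of tested members called higher (red, to the right) or lower (blue, to the left) in KO LT-HSC, and the median log2 fold change of tested members, for 43 gene lists with the number tested in parentheses. Megakaryocyte-platelet (18 of 28) and stem cell identity (24 of 42) lead the higher side and granulocyte-monocyte (11 of 34) and lymphoid priming (7 of 25) the lower side.

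Lists of the cell cycle machinery held calls at about the share of all genes (2.64%). Of 46 DNA replication genes 0 were called by edgeR, with a median of -0.38 and 6 at an unadjusted p under 0.05, and 1 each by DESeq2 and limma voom. Of 42 mitosis genes 1 was called, Ect2, needed for the final split of dividing cells, at 34, 32.4 and 11.1 CPM in KO LT-HSC and 94.8, 44.0, 96.0 and 70.1 CPM in KO MPP3 (-1.56 ± 0.42, edgeR adjusted p = 0.0498). That call was lost without any 1 of 6 libraries, all but KO MPP3 2 (edgeR adjusted p from 0.0801 to 0.187). The mitosis median of -0.52 was 0.15 within title numbers under 100 and -1.19 over 100, and that of DNA replication 0.06 and -0.72. Only KO LT-HSC 3 stood for stem cells over 100. Summed, mitosis genes took 0.364, 0.489 and 0.275% of counts in KO LT-HSC and 0.377, 0.279, 0.702 and 0.461% in KO MPP3. These are shares of all counts, so immunoglobulin reads in KO MPP3 1 and ribosomal RNA reads in KO MPP3 2 lower them. Fitted changes were negative in 40 and positive in 2 mitosis genes, and negative in 40 and positive in 6 DNA replication genes. Over all genes tested they were negative in 10942 and positive in 10024.

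Of 18 tested CDK inhibitors, CDKs and D cyclins 1 was called higher and 1 lower, beside 1.56% and 1.09% of all genes tested. Their median log2 fold change was -0.23, with 7 positive and 11 negative. Cdk6, the kinase that lets stem cells leave quiescence, was at 317, 325 and 141 CPM in KO LT-HSC and 732, 993, 734 and 699 CPM in KO MPP3 (-1.60 ± 0.25, edgeR adjusted p = 0.000916). Cdkn1c, the CDK inhibitor p57 of quiescent stem cells, was at 12.8, 21.6 and 36.8 CPM in KO LT-HSC and 4.47, 2.50, 1.21 and 4.37 CPM in KO MPP3 (2.92 ± 0.62, edgeR adjusted p = 0.0124). The groups did not overlap for either gene, and they were the called members of this list. Cdkn2c, another CDK inhibitor, was not called, at means of 13.8 CPM in KO LT-HSC and 28.7 CPM in KO MPP3 (-1.05 ± 0.33, edgeR adjusted p = 0.102). Of 11 genes around MYC, Mycn was higher at 330, 101 and 273 CPM in KO LT-HSC and 62.9, 58.3, 22.2 and 60.4 CPM in KO MPP3 (2.20 ± 0.47, edgeR adjusted p = 0.0135). Mxd4, a repressor that competes with MYC for its partner, fell by 0.97 on the log2 scale (edgeR adjusted p = 0.0316). The call of Cdkn1c was lost without KO LT-HSC 3 (edgeR adjusted p = 0.0667), that of Mycn without KO LT-HSC 1 (0.0791), and that of Mxd4 without any 1 library but KO LT-HSC 3 or KO MPP3 3 (0.0555 to 0.153).

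**Figure D4:**
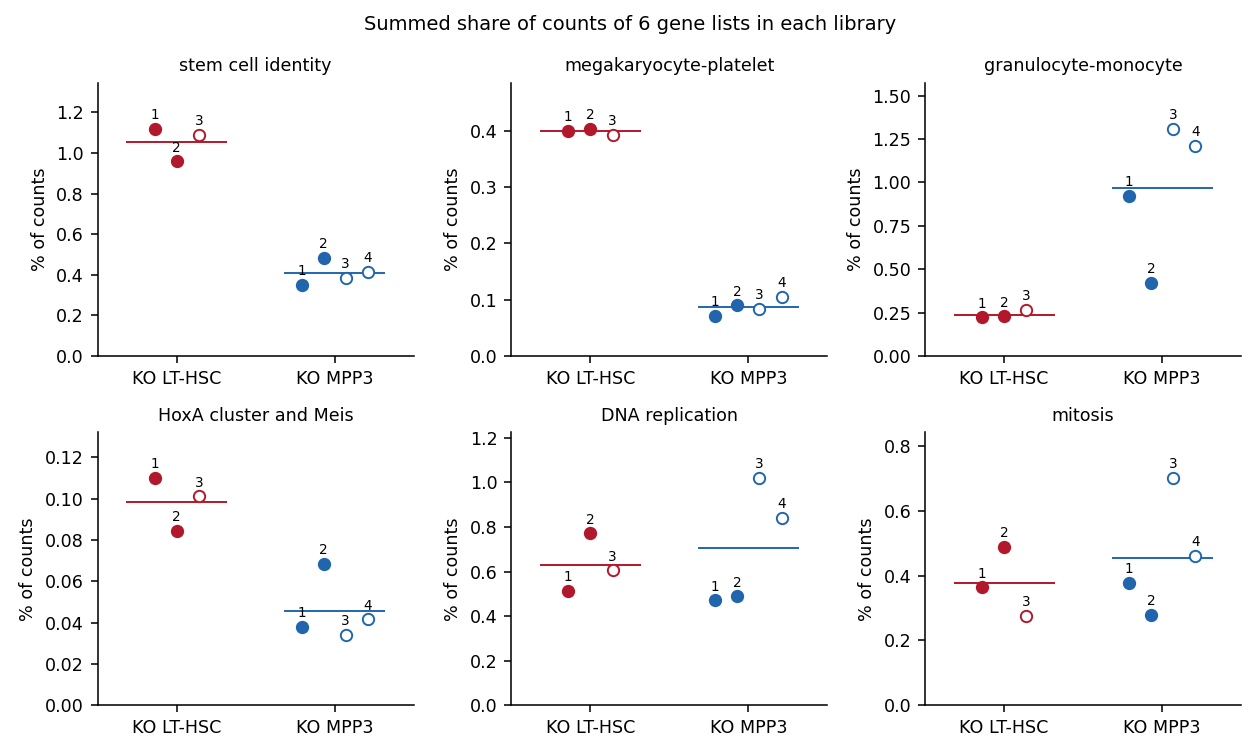
Summed share of counts (%, from 0) of 6 gene lists in each library, KO LT-HSC left of KO MPP3, with library numbers, group means as lines, and filled symbols for title numbers under 100 and open symbols for those over 100. The 4 identity lists separate the groups, while DNA replication and mitosis overlap and are highest in KO MPP3 3.

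Metabolic and growth lists had medians near that of all genes over all 7 libraries. Within title numbers under 100 and over 100 the medians were 0.40 and -0.53 for the TCA cycle, 0.47 and -0.39 for nucleotide synthesis, 0.42 and -0.38 for tRNA synthetases, 0.31 and -0.14 for ribosome biogenesis, and 0.25 and -0.20 for the respiratory chain. Ribosome biogenesis held 0 calls of 44 members in edgeR, DESeq2 or limma voom, with a median of -0.05 and 2 members at an unadjusted edgeR p under 0.05. In edgeR, no member was called in the lists of the TCA cycle (19), glycolysis (24), nucleotide synthesis (23), tRNA synthetases (20), cholesterol synthesis (22), heat shock (18), the interferon response (36), MHC class I (15), apoptosis (20) and DNA methylation (12), with medians between -0.40 and 0.29. Of their 209 members together, DESeq2 called 5 and limma voom 20, beside 1377 and 1538 of all 21100 genes. An unadjusted edgeR p under 0.05 was seen in 38, and the share over all genes was not counted. Of 46 nuclear genes of the respiratory chain, Ndufa4, a subunit tied to cytochrome c oxidase, was called. It was at 598, 594 and 628 CPM in KO LT-HSC and 1047, 1202, 1427 and 1580 CPM in KO MPP3 (-1.11 ± 0.18, edgeR adjusted p = 0.00114), while the list's median was -0.08. Of 33 lysosome and autophagy genes, Ctsl, cathepsin L, was called, higher by 1.5 ± 0.31 (edgeR adjusted p = 0.00921; 0.122 when only the groups compared entered the fit).

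Genes under genomic imprinting are read from 1 parental copy and often restrain growth. Of 19 tested members 5 were called higher in KO LT-HSC and 0 lower, beside 1.56% and 1.09% of all genes tested. A positive log2 fold change was seen in 14 members, and the median was 2.92. Grb10, an adaptor that restrains growth factor signalling, was at 80.3, 66.3 and 80.2 CPM in KO LT-HSC and 6.69, 9.67, 5.34 and 5.79 CPM in KO MPP3 (3.46 ± 0.29, edgeR adjusted p = 2.36e-06). Ndn, necdin, was at 96.4, 58.1 and 70.5 CPM in KO LT-HSC and 5.65, 4.78, 5.44 and 1.49 CPM in KO MPP3 (4.11 ± 0.75, edgeR adjusted p = 0.00372). Phlda2 was higher by 2.84 ± 0.50, Sgce by 1.48 ± 0.20, and Cdkn1c, given above, is the fifth. Phlda2 and Cdkn1c lie close together on chromosome 7 (143501545 to 143503150 and 143458339 to 143461050, mm10). All 5 were also called higher in the stem cells of the WT step described below.

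Of 13 tested genes of the HoxA cluster and its partners, 3 were called, all higher, beside 1.56% of all genes called higher. Meis1 was at 436, 312 and 416 CPM in KO LT-HSC and 202, 243, 139 and 161 CPM in KO MPP3 (1.06 ± 0.22, edgeR adjusted p = 0.00953), and Hoxa10 was higher by 1.2 ± 0.28. The call of Meis1 was lost without KO LT-HSC 1 (edgeR adjusted p = 0.0561) and that of Hoxa10 without KO LT-HSC 1 (0.0927), KO LT-HSC 3 (0.0873) or KO MPP3 3 (0.0684). Of 7 tested HoxB genes Hoxb5 alone was called. In the Polycomb and the NuRD and PHF lists 4 genes were called, all lower, beside 1.09% of all genes called lower. In Polycomb, Asxl1 (-0.95 ± 0.25) and Cbx8 (-1.22 ± 0.32) were lower among 26 members, and in the list of the NuRD complex and PHF genes, Phf14 (-1.19 ± 0.30) and Mta3 (-1.19 ± 0.31) were lower among 22. The call of Asxl1 was lost without any 1 library but KO MPP3 4 (edgeR adjusted p from 0.059 to 0.178), those of Cbx8 and Mta3 without any but KO MPP3 2 (0.0543 to 0.209), and that of Phf14 without any but KO MPP3 3 or KO MPP3 4 (0.0598 to 0.144).

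Receptors divided between the populations. Of 32 cytokine receptor genes 4 were called higher and 3 lower, beside 1.56% and 1.09% of all genes tested. Besides Tek, Il11ra1 was at 65.5, 73.5 and 107 CPM in KO LT-HSC and 24.9, 31.8, 36.3 and 36.5 CPM in KO MPP3 (1.34 ± 0.19, edgeR adjusted p = 0.000505), and Il27ra was higher by 1.39 ± 0.33. Il1r1, the interleukin 1 receptor, was at 11.4, 11.9 and 1.73 CPM in KO LT-HSC and 86.4, 102, 49.3 and 53.2 CPM in KO MPP3 (-3.12 ± 0.79, edgeR adjusted p = 0.0388). Ifnar2, of the type I interferon receptor, fell by 1.29 on the log2 scale. Il1r1 and Ifnar2 were picked after their values were seen, and Csf1r is the third lower receptor. The calls of Il27ra, Il1r1 and Ifnar2 were each lost without any 1 library but KO MPP3 4, KO MPP3 3 and KO MPP3 2 in that order (edgeR adjusted p from 0.0566 to 0.167). Tgfbr3, the accessory TGF-beta receptor betaglycan, was at 133, 103 and 72.7 CPM in KO LT-HSC and 7.51, 12.1, 3.88 and 1.96 CPM in KO MPP3 (4.03 ± 0.47, edgeR adjusted p = 4.83e-05), and Eng, endoglin, was higher by 1.04 ± 0.23. They were the called members of 25 TGF-beta and SMAD genes, and the call of Eng was lost without KO LT-HSC 3 (0.0999).

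Signal-response genes gave single calls in each list, beside 2.64% of all genes tested. Cish, which damps cytokine signalling through STAT5, was at 68.8, 38.4 and 48.8 CPM in KO LT-HSC and 13.2, 7, 5.24 and 8.99 CPM in KO MPP3 (2.59 ± 0.40, edgeR adjusted p = 0.001), the 1 call among 22 SOCS and JAK-STAT genes. Traf1 was the 1 call among 30 TNF and NF-kB genes (2.22 ± 0.54), Nr4a1 among 23 immediate early genes (2.84 ± 0.67) and Txnip, a brake on glucose uptake, among 17 FoxO and TXNIP genes (0.95 ± 0.21). H2-Ob, a regulator of MHC class II loading, was at 18.4, 24.7 and 15 CPM in KO LT-HSC and 193, 215, 117 and 196 CPM in KO MPP3 (-3.22 ± 0.43, edgeR adjusted p = 0.000223), the 1 call among 9 MHC class II genes. KO LT-HSC 2 had 3.43 CPM of Nr4a1, close to 3.13 CPM in KO MPP3 2. The call of Traf1 was lost without any 1 library but KO MPP3 1 (edgeR adjusted p from 0.0611 to 0.0992), that of Nr4a1 without any but KO LT-HSC 2 or KO MPP3 2 (0.0604 to 0.17), and that of Txnip without KO LT-HSC 1 (0.0689).

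Of 31 adhesion and niche genes 6 were called higher and 5 lower, beside 1.56% and 1.09% of all genes tested. Cd63, a tetraspanin of lysosomes and platelet granules, was at 387, 417 and 455 CPM in KO LT-HSC and 128, 71.9, 109 and 132 CPM in KO MPP3 (1.93 ± 0.21, edgeR adjusted p = 2.83e-05). Cd47, the surface signal that holds off phagocytes, was at 673, 669 and 653 CPM in KO LT-HSC and 1021, 1155, 1119 and 1207 CPM in KO MPP3 (-0.76 ± 0.11, edgeR adjusted p = 0.000707). The groups of Cd47 did not overlap, although the change was small and was not called when only the groups compared entered the fit (edgeR adjusted p = 0.0876). Itgb7, an integrin of lymphocyte homing, fell by 2.03 on the log2 scale. Pecam1, an adhesion molecule of endothelium and blood cells, fell by 1.35, a call lost without KO LT-HSC 3 (edgeR adjusted p = 0.0559). Of 12 stroma and endothelium markers, Pecam1 and Pdgfrb were lower and Col1a2 higher. Col1a2, a chain of collagen I, was uneven within KO LT-HSC at 8.84, 1.78 and 22.5 CPM, against 0.13, 0, 0.0347 and 0.0711 CPM in KO MPP3. Pdgfrb was at 3.38, 3.22 and 14 CPM in KO LT-HSC and 25.5, 63.2, 18.3 and 28.9 CPM in KO MPP3 (-2.30 ± 0.55, edgeR adjusted p = 0.0278). The call of Col1a2 was lost without KO LT-HSC 3, KO MPP3 3 or KO MPP3 4 (0.0568 to 0.0598), and that of Pdgfrb without KO LT-HSC 1, KO LT-HSC 2 or KO MPP3 2 (0.0737 to 0.146). Summed, the list took 0.00662 to 0.0131% of counts in KO LT-HSC and 0.00927 to 0.0135% in KO MPP3. Il4 was the 1 call among the 9 mast cell and basophil markers tested, beside 1.56% of all genes called higher. The list's median was -2.535, with 5 negative and 2 positive fitted changes. Cpa3 averaged 5.64 CPM in KO LT-HSC and 32.6 CPM in KO MPP3, and Hdc 0.736 and 9.47 CPM, both without overlap. Mcpt8 averaged 0.012 and 4.29 CPM and Ms4a2 0 and 2.49 CPM in the same order. Of the 13 listed, Fcer1a, Cma1, Mcpt4, Prss34, Tpsab1 and Tpsb2 had 0 counts in all 7 libraries.

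Among the smallest adjusted p values were 2 genes picked after their values were seen. Gng11, a G protein gamma subunit (chromosome 6, 4003904 to 4008445, plus strand, mm10), was at 273, 224 and 219 CPM in KO LT-HSC and 25.8, 26.3, 26.1 and 25.3 CPM in KO MPP3 (3.20 ± 0.27, edgeR adjusted p = 2.36e-06). Art4, the Dombrock blood group protein, whose promoter is printed above, was at 88.6, 86.7 and 63.0 CPM in KO LT-HSC and 8.17, 7.46, 3.12 and 5.26 CPM in KO MPP3 (3.73 ± 0.32, edgeR adjusted p = 2.36e-06). The KO MPP3 libraries agreed closely on Gng11, those with high immunoglobulin or ribosomal RNA shares included.

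The same step in WT mice was measured in the same fit, from other libraries. There 232 genes (1.1%) were called, 152 (0.72%) higher and 80 (0.379%) lower in WT LT-HSC than in WT MPP3, with 2 stem cell libraries in place of 3. Both steps called 200 genes, all in the same direction, which is 35.8% of the KO calls and 86.2% of the WT calls. Of the 558 genes called in KO, 555 (99.5%) had the same sign in WT, against 66.6% of all genes tested. The genes called higher in KO had a median log2 fold change of 2.53 in the KO step and 2.18 in the WT step, and those called lower -2.27 in the KO step and -1.78 in the WT step. The genes were chosen on the KO step, so a smaller median in WT is no test of a difference. Across 9510 genes with a mean of at least 10 CPM, the log2 fold changes of the KO and WT steps had a Pearson r of 0.651 and a Spearman coefficient of 0.625, given as a description across genes, which are not replicates. By list, stem cell identity had a median of 2.21 in KO and 2.16 in WT, megakaryocyte-platelet 2.90 and 2.60, and lymphoid priming -4.09 and -3.87. Granulocyte-monocyte had -4.71 in KO and -2.40 in WT, with 11 called members in KO and 5 in WT. Within title numbers under 100 and over 100 its KO median was -2.78 and -4.49. These 2 values are differences of log2 CPM and not fitted changes, so they cannot be set directly against the WT median. Both WT LT-HSC libraries had title numbers under 100 (54 and 61). The KO and WT steps thus also differ in title numbers, which the main fit did not separate from genotype.

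The difference between the steps, KO minus WT, was tested for every gene. No gene passed the adjusted threshold in edgeR (0 of 21100, 0%) or limma voom, DESeq2 called 26, and 521 genes (2.47%) had an unadjusted edgeR p under 0.05. The 5 genes named by the rule had the smallest unadjusted p among those of at least 10 CPM, and all had an edgeR adjusted p of 1. Cep72, a centrosomal protein, was at 9.70, 7.78 and 16.7 CPM in KO LT-HSC and 16.8, 13.1, 17.5 and 10.1 CPM in KO MPP3. In WT it was at 1.48 and 3.40 CPM in WT LT-HSC and 18.2, 14, 22.8 and 14.3 CPM in WT MPP3. Its step was -0.34 in KO and -2.83 in WT, a difference of 2.49 ± 0.57 (edgeR adjusted p = 1), and its KO groups overlapped. Cebpa had a step of -7.49 in KO and -3.61 in WT, a difference of -3.89 ± 0.95 (edgeR adjusted p = 1). WT LT-HSC had 0.843 and 0.408 CPM of Cebpa and WT MPP3 4.73, 6.05, 12.6 and 7.24 CPM, so that the KO LT-HSC values lay below the WT LT-HSC values while KO MPP3 and WT MPP3 overlapped. The KO step of Cebpa rests on 5 counts in KO LT-HSC.

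Hcst, the adaptor DAP10 of activating immune receptors, was at 13.7, 18.7 and 18.1 CPM in KO LT-HSC and 51.2, 74.0, 53.1 and 78.9 CPM in KO MPP3, and at 36.5 and 30.8 CPM in WT LT-HSC and 51.5, 52.3, 47.5 and 59.5 CPM in WT MPP3. The difference of its steps was -1.29 ± 0.38. Mtcp1 and Zfp951 had steps of 0.87 and 1.13 in KO and -0.71 and -0.56 in WT. Among genes of the main step, 3 picked after their values were seen had larger steps in KO at an unadjusted edgeR p under 0.05: Plac8 (-5.05 in KO, -3.03 in WT), Cmah (-10.73 in KO, -5.01 in WT) and Tespa1 (-5.20 in KO, -3.79 in WT), each with an edgeR adjusted p of 1. These 3 came from the genes with the largest fall in KO, so a larger KO step is no test of a difference. For Cmah the KO step rests on 1 count in KO LT-HSC, and WT LT-HSC was at 0.0703 and 1.29 CPM. In the granulocyte-monocyte list 3 of 34 members had an unadjusted p under 0.05, and in stem cell identity and megakaryocyte-platelet 0 members did, beside 2.47% of all genes.

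**Figure D5:**
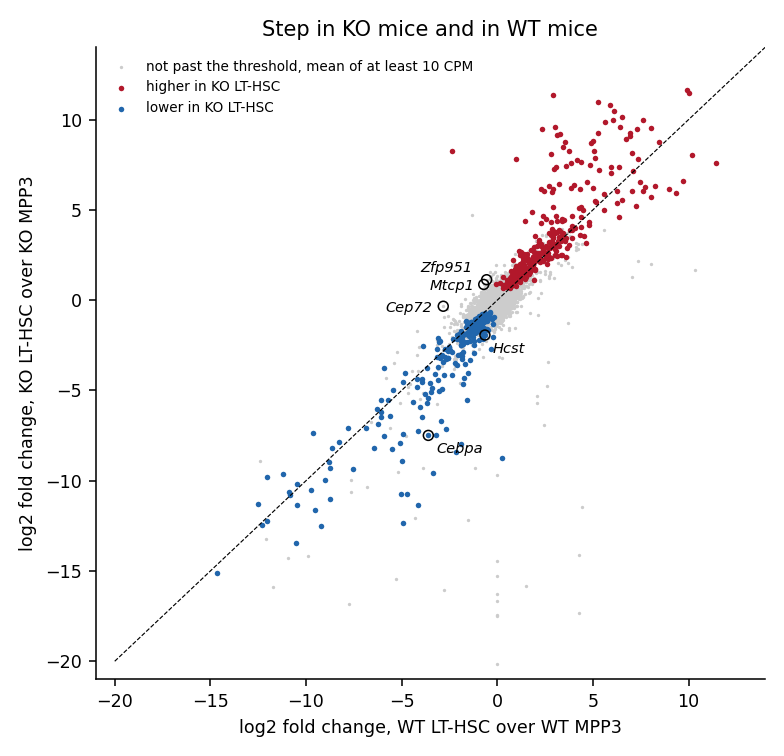
Log2 fold change of WT LT-HSC over WT MPP3 (x axis) and of KO LT-HSC over KO MPP3 (y axis) for the genes called in the KO step (red higher, blue lower) and for other genes with a mean of at least 10 CPM (grey), with the line of equality dashed. Of the 558 called genes 555 have the same sign on both axes, and the 5 circled genes have the smallest unadjusted p for the difference of the steps, none past the adjusted threshold.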

How the data were processed

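The authors deposited unnormalised counts of reads in each gene for 21 Nextera XT libraries of sorted cells. Reads were aligned to mm10 by STAR, per the submitters' processing notes, and the STAR version, the program that counted and its annotation were not given in the sources used here. How reads of near-identical or overlapping genes were shared is unknown, so single histone and immunoglobulin genes are uncertain. Of 54446 gene IDs, 54409 matched GENCODE M21, and the 37 others held 0.0184% of counts. There were 0 pairs of libraries with identical counts.

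Groups were taken from the labels. Counts were fitted in R 4.3.3 with edgeR 4.0.16 (robust quasi-likelihood, TMM) over all 21 libraries in 6 groups, after filterByExpr with a minimum count of 10. Contrasts were KO LT-HSC minus KO MPP3, the same in WT, and their difference, with Benjamini-Hochberg adjustment and a threshold of 0.05. SE was derived from the log2 fold change and the F statistic of each gene. Alternatives included DESeq2 1.42.0 and limma voom (limma 3.58.1), other factors, no filter, blocks and omissions. Floors (3 counts) and exact 95% intervals cover counting error only.

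The 15 higher and 15 lower genes had the largest fold change among called genes with at least 10 CPM in the higher group, no overlap, and the same side of the threshold without each library, passing over predicted models and receptor segments. Up to 5 members of smallest p came from each list, and 5 genes of smallest p from the difference of steps. The members, lists and rule were chosen with earlier results of these data known. A few genes that the rule chose are not reported here.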

Additional observations from a re-analysis of the deposited data

Results flagged for a closer look

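In KO MPP3, the group of 4 libraries, 21 of 144 values examined had 1 library set apart from the other 3 by Dixon's gap, which chance gives in about 1 group in 20. KO MPP3 1 had 26.8% of counts in immunoglobulin genes against 0.056 to 0.0772% in the others, 20.7% in the B cell and plasma list against at most 0.0979%, 8.41% in the lymphoid priming list against at most 0.485%, and a count for 23984 genes against at most 21827. It also had 0.434 CPM of Cpne8 against 0 in the others, and 1.17 CPM of Tek against at least 5.29.

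KO MPP3 2 had 21.9% of counts in ribosomal RNA genes against at most 1.61% and 12.8% in mitochondrially encoded genes against at most 3.02%, with mitochondrial ribosomal RNA (11%) in both. Its levels of Kit (509 CPM against at most 191), Pf4 (14.3 against 3.47), Fhl1 (11.3 against 4.48), Hoxb5 (0.74 against 0.0434) and Cdk6 (993 against 734) were the highest of the group, and that of Cst7 (66.9 CPM against at least 152) was the lowest. Its summed shares of counts were also highest for the imprinted list (0.0506% against at most 0.0233%), the HoxB cluster (0.0023% against 0.000695%) and the neutrophil list (0.0136% against 0.00401%).

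KO MPP3 3 had 4.23 CPM of Clca3a1 against at most 0.0869, 22.2 CPM of Mycn against at least 58.3, and 0.225% of counts in the erythroid list against at most 0.0919%. KO MPP3 4 had 0.0757% of counts in the cholesterol synthesis list against at most 0.0582%. The causes of these values were not tested.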

How the results depend on the processing

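Against 329 higher and 229 lower genes, DESeq2 called 731 and 646, limma voom 1025 and 513, and a term for the title number lower genes at 402 (485 higher). The difference of steps had 26 calls in DESeq2 and 0 under every other alternative. Leaving out 1 library gave 184 to 329 higher and 114 to 274 lower genes, and 0 to 0 for the difference of steps. Other factors, no filter and only the groups compared gave 259 to 342 higher and 176 to 227 lower genes. Without KO MPP3 1 and KO MPP3 2, and without immunoglobulin, ribosomal RNA and mitochondrial genes, both omissions chosen after seeing the data, there were 271 and 330 higher and 223 and 226 lower genes. In all of these the called genes that were tested kept their sign. Libraries that share a label number had deviations that correlated at 0.265, -0.0743 and -0.0118, so the number was not taken to pair them. A replicate block by label number gave 359 higher and 279 lower genes, with 447 of the 558 shared, and one by title number 389 and 274, with 459 shared. Of 87 called genes followed through the alternatives, 51 stayed called under every one. Genes named only among the families under other observations were not followed. The genes of largest rise and fall were chosen to stay called without each single library, which fixed part of this count in advance. The label and title blocks ended 9 and 7 of the 87 calls, Mpo, Ctsg, Dntt and Rag2 under both. No filter ended 14, only the groups compared 18, limma voom 10, other factors at most 4, the title term 1, leaving out 1 library 9 to 25, and leaving out KO MPP3 1 and KO MPP3 2 together 20.

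Uncalled genes changed sign, with ranges over single omissions of -0.22 to 0.36 for Phf6, -0.10 to 0.75 for Kit and -0.42 to 1.22 for Ly6a. Phf6 was at -0.24 in limma voom, -0.20 without KO LT-HSC 3, -0.22 without KO MPP3 2 and -0.39 without KO MPP3 1 and 2. Kit was at -0.02 without KO LT-HSC 3, and -0.10 without KO MPP3 3 or 4. Ly6a was at 0.94 in limma voom, 0.047 and 0.45 with the blocks by label and title number, 0.35 with the title term, 0.05 and 0.15 without KO LT-HSC 2 or 3, 1.22 without KO MPP3 1 and 1.86 without KO MPP3 1 and 2. The causes were not tested.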

Other observations

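Several gene families outside the lists were looked at after the values had been seen, and are described by their counts beside 1.56% of all tested genes called higher and 1.09% called lower in KO LT-HSC. All 4 tested cavins and caveolins, the coat proteins of caveolae, were called higher (Cavin1, Cavin2, Cavin3 and Cav2; median log2 fold change 3.08). Of 18 glutathione S-transferases 4 were called higher (Gstm5, Gstm2, Gstk1 and Gstt1), of 28 collagens 4 (Col16a1, Col1a2, Col4a1 and Col4a2), and of 10 BEX and TCEAL genes 4 were called, 3 of them higher. Of 26 subunits of heterotrimeric G proteins, Gnai1, Gng11, Gnb5 and Gnaz were called higher and Gna14 lower.

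Of 57 replication-dependent histone genes 6 were called lower and 0 higher, with a median log2 fold change of -1.47. Reads may be shared between copies of these genes, so their single values are uncertain. Of 5 subunits of the NADPH oxidase of phagocytes, Ncf1 and Ncf4 were called lower, with a median of -2.62.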
